A study of Mus musculus with 10 samples.

Results

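Freshly isolated crypts of the mouse small intestine were compared with small intestinal organoids grown in culture, both wild type. The crypt group was the wild type channel of 4 arrays, 2 arrays for each of 2 replicates with the dyes exchanged between them, and the organoid group was the Cy5 channel of 2 arrays, so that 6 of the 10 arrays of the series entered. The series was made to study Lgr4 and Lgr5, the receptors for the Wnt-enhancing R-spondins, in intestinal crypts and organoids. Crypts had been detached with EDTA, and the wild type crypt RNA was hybridised on the same 2-colour arrays as RNA of crypts in which Lgr4 and Lgr5 had been deleted by P450Cre, sampled on day 1. The agent given to the wild type mice of the crypt arrays is not stated in the labels. The organoids came from the small intestine of VillinCre_wt mice, which carry a Cre driven by the epithelial villin promoter and intact receptor genes, and their label gives induction with tamoxifen for 1 day. Their RNA was labelled with Cy5, and each array also held a purchased mouse reference RNA labelled with Cy3. A further small intestinal control culture, whose genotype the label does not give, was kept in medium with EGF, Noggin and R-spondin and hybridised on another slide against the same kind of reference. It gave 1 sample, which did not enter the choice of genes. The labels call the crypt replicates and the second organoid sample biological replicates but do not say how many animals stood behind each, so every p-value here measures only the spread between these samples. Each replicate lay on a slide of its own and the extraction also differed, so that slide, extraction and group cannot be told apart, whereas the crypts were measured in both dyes.

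Intestinal crypts hold the stem cells and the dividing progenitors of the gut lining, with Paneth cells between the stem cells and newly made absorptive and secretory cells above. Isolated crypts are epithelium, but lymphocytes that live within the epithelium and cells of the surrounding tissue can come with them, and in the animal the crypt meets microbes, food and signals of the mesenchyme. Organoids are grown from crypts or stem cells in a basement membrane gel, where added growth factors replace the mesenchyme and no immune cells or living microbes are supplied.

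Each probe was given its percentile of background-subtracted signal within its channel, from 0 for the dimmest to 100 for the brightest of 41174 probes, and 13173 genes were compared, those whose signal was well above background throughout the crypt channels or on both organoid arrays. Between 41.8% and 57.6% of gene spots were well above background in the wild type crypt channels, and 46.9% and 48.4% on the organoid arrays. The median gap between the 2 crypt replicates was 1.29 percentile points and that between the 2 organoid samples 1.89 points, against 2.58 points between the group means. Across genes, which are not independent, the rank correlation (Spearman) was 0.990 between the crypt replicates, 0.971 between the organoid samples and 0.918 to 0.927 between a crypt and an organoid sample. The number of samples limits the precision.

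A gene was called where crypt and organoid differed by at least 25 points in the same direction in all 4 pairs of a crypt and an organoid replicate. By this rule, which carries no test, 54 genes (0.410% of those compared) ranked higher in crypts and 124 (0.941%) ranked higher in organoids. With the crypt signal taken from Cy5 alone, the dye of the organoids, the counts were 53 and 116, with 51 and 100 genes in common with the first. Between the replicates of a group, gaps of that size occurred in 14 genes for crypts and 10 genes for organoids. The counts moved with single samples: the crypt-high count was 85 without organoid replicate 1 and 93 without organoid replicate 2, and the organoid-high count was 233 without crypt replicate 2. Most calls were between a clear signal and one near background, since 52 of the 54 crypt-high genes were not well above background on either organoid array and 100 of the 124 organoid-high genes were not so in any wild type crypt channel. When genes had to be above background in both groups, 0 crypt-high genes and 1 organoid-high gene met the rule. Percentiles of genes that were not well above background hold no order among themselves. Among genes with an approved symbol, those just inside the 25-point limit were Khdrbs3 (25.1), Cpa1 (25.6) and Ptprc (26.3) on the crypt side, and those just outside were Cyp27a1 (24.9), Arg1 (24.9) and Serpinb2 (24.6). On the organoid side Emx2 (-25.1), Irx1 (-25.2) and Trem2 (-25.7) were just inside and Serpinf1 (-24.96), Ifi204 (-24.9) and Areg (-24.9) just outside.

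**Figure D1:**
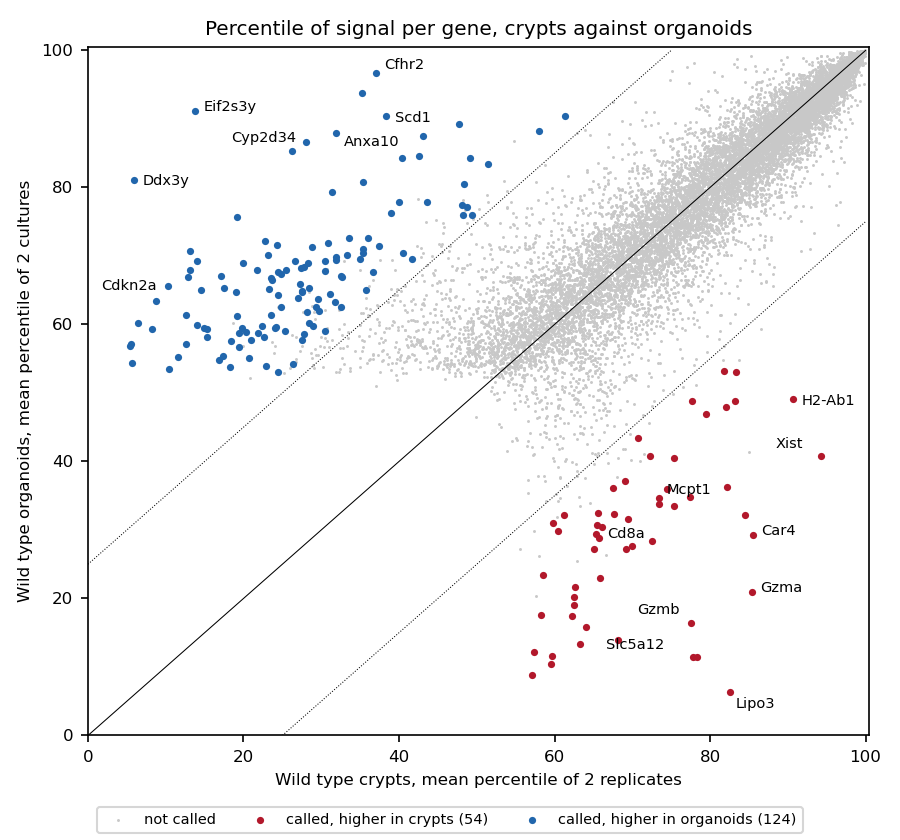
Percentile of signal of each of the 13173 genes in wild type crypts (horizontal axis, mean of 2 replicates) and wild type organoids (vertical axis, mean of 2 samples). The dotted lines mark a gap of 25 points, red points are the 54 genes called higher in crypts and blue points the 124 called higher in organoids. Most genes lie along the diagonal, and Xist, H2-Ab1 and Gzma on one side and Cfhr2 and Eif2s3y on the other stand far from it.

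As a second measure, log2 signals were fitted with limma, 2 crypt against 2 organoid samples. At a Benjamini-Hochberg adjusted p under 0.05, 1405 genes (10.7%) were higher in crypts and 1381 (10.5%) were higher in organoids, of which 125 and 185 differed by 4-fold or more. The median log2 difference of all genes was 0.01. These counts depended on both crypt replicates: without crypt replicate 1 they were 206 and 344, and without crypt replicate 2 they were 77 and 94. With crypt Cy5 alone they were 863 and 728. In what follows, a gene is said to be higher or lower where it passed this test, differences are crypt minus organoid on the log2 scale with the standard error of the fit, and "at least" marks a lower bound used where a gene was not well above background in one group. A gene could enter through 1 group alone, the one in which it was bright, so the counts and medians of gene lists are descriptions of the members that entered and support no shift of a whole list. Genes outside the naming rule given with the processing, such as the list members named for the size of their difference, were chosen after their values were seen.

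Genes of cytotoxic lymphocytes were among the crypt-high genes. Gzma, a granzyme of killer lymphocytes, ranked at the 85.6 and 85.2 percentile in the crypt replicates and at 11.8 and 30.0 in the organoids, and was at least 15.7-fold higher in crypts (limma adjusted p = 4.81e-05). Gzmb, the companion granzyme, ranked at 77.2 and 78.0 in crypts and at 25.1 and 7.88 in organoids. Both genes were clear in each crypt replicate and near background in each organoid sample. That the groups did not overlap follows from the 25-point rule by which they were called. Of 20 measured T cell and intraepithelial lymphocyte markers, 13 were higher in crypts, 1 was higher in organoids and 6 did not pass, and 6 met the 25-point rule, all in crypts, beside 10.7%, 10.5% and, for the crypt side of the 25-point rule, 0.410% of all genes. On the organoid arrays 11 of the 20 were nowhere well above background and had entered through the crypts alone. The median log2 difference of the list was 1.71, and its summed signal was 13130 and 11500 in the crypt replicates against 3914 and 3934 in the organoids. The coreceptor gene Cd8a was at least 2.47-fold higher (crypts 66.3 and 65.1, organoids 32.1 and 25.7) and the T cell receptor chain gene Cd3d at least 2.56-fold higher (crypts 64.2 and 68.2, organoids 27.9 and 32.8). Cd3e, another chain of that receptor complex, did not pass (60.8 and 55.8 against 61.8 and 59.3, log2 difference -0.16, adjusted p = 0.682). Ccl5, a chemokine of activated T cells, was well above background in both groups, at 93.4 and 92.3 in crypts and 69.4 and 72.5 in organoids, a log2 difference of 3.54 ± 0.24 (SE, adjusted p = 0.000123). In such bulk samples, fewer cells of a type and less RNA per cell cannot be told apart.

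Other blood cell genes were mixed. The shares of all genes were 10.7% higher in crypts and 10.5% higher in organoids. Mcpt1, a protease of mucosal mast cells, ranked at 74.95 and 71.8 in crypts and 37.4 and 31.9 in organoids and was at least 4.67-fold higher. It was the 1 gene of 8 measured myeloid and mast cell markers that passed, and Mcpt4, a further mast cell protease outside that list, was at least 3.24-fold higher. Igh, a probe for the immunoglobulin heavy chain locus, was at least 9.99-fold higher in crypts (83.5 and 80.4 against 45.03 and 51.0). Jchain, which joins secreted immunoglobulins, went the other way, at 67.2 and 61.8 in crypts and 87.7 and 87.5 in organoids, and was among the 3 of 7 measured B cell and plasma cell markers that were higher in organoids, with a list median of -0.49. The organoid signal of Jchain was 4.35% of that of the reference RNA on other arrays of the same kind, a point taken up with the stromal genes. By the cut on this percentage given there, 4 of the 7 markers were bright in the reference. Among the other 3, 0 were higher in crypts and 0 in organoids, with a median of -0.17. Each of the 3 markers that were higher in organoids was thus bright in the reference. Of 4 measured erythroid, pancreatic and fat markers, 3 were higher in crypts, among them the haemoglobin gene Hba-a1 (at least 3.24-fold) and the pancreatic enzyme gene Cpa1 (at least 1.67-fold). The part of such cells in the other differences was not tested.

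Class II major histocompatibility genes, which present peptides to helper T cells and are made by immune cells and, under interferon gamma, by gut epithelium, had several members that were higher in crypts. Of 7 measured members, 6 were higher in crypts, 0 were higher in organoids, 3 met the 25-point rule, and the median log2 difference was 1.70. Over all genes the shares were 10.7% and 10.5%, and 0.410% for the crypt side of the 25-point rule. Of the 7, 5 had entered through the crypts alone, and 4 of these were not well above background on any organoid array. H2-Ab1 ranked at 92.6 and 88.8 in crypts and 50.9 and 47.3 in organoids, at least 31.0-fold higher in crypts (limma adjusted p = 8.54e-05). H2-DMb1, a chain of the peptide exchange factor, ranked at 85.0 and 81.7 against 51.8 and 54.4, a log2 difference of 3.38 ± 0.25 (SE). Its mean gap was 15.6 points with the crypt Cy3 signal alone and 22.8 points over both of its probes, and under each of these settings it no longer met the 25-point rule. H2-Aa ranked at 62.6 and 62.3 against 31.3 and 6.83, and H2-Eb1 at 71.6 and 67.9 against 44.4 and 43.5. All 4 genes were separated between the groups in every sample, which for the 3 that met the 25-point rule follows from that rule. Ciita, the master activator of the class, was at least 1.73-fold higher in crypts (61.3 and 60.0 against 44.4 and 43.1). Genes of this family are alike in sequence, so a probe may read more than 1 of them.

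The class II promoters are known for a shared X box and Y box, and the promoters that held a match are shown. RefSeq promoter entries on build GRCm38.p6 were found for 5 of the 7 measured genes, and the 250 bases before each start were searched on both strands for a core of the X box (AG, any base, AAC, any base, GATG) and a core of the Y box (TGATTGG). The X box core stood in 2 of the 5 genes, against 0.259% of 32851 promoters of the same length, and the Y box core in 3, against 7.23%. The entries of H2-DMa, which was also higher in crypts (log2 difference 1.70), and of Ctss, which did not pass, held neither. The entries, 5′ to 3′ on the gene's strand with the matches in capitals, are H2-DMb1 at chr17:34152941-34153190 (plus strand), H2-Eb1 at chr17:34305617-34305866 (plus strand) and H2-Aa at chr17:34287824-34288073 (minus strand).
H2-DMb1: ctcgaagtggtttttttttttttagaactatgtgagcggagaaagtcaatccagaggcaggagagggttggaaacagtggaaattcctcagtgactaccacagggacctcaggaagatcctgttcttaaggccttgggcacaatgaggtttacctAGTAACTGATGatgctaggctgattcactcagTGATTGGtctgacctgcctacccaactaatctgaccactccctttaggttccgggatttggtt
H2-Eb1: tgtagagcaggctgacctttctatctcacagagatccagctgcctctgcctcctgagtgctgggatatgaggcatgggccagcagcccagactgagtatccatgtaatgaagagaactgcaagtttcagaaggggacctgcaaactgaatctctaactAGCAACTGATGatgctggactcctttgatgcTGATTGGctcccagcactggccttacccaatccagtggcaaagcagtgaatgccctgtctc
H2-Aa: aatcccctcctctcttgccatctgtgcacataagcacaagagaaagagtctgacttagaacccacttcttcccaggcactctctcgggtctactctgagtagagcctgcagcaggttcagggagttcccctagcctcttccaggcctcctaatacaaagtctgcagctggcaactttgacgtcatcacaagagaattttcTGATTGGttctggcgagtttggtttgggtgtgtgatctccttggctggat
The X box core began 95 bases before the start of H2-DMb1 and 92 bases before that of H2-Eb1, and the Y box core began 63, 61 and 50 bases before the start of H2-DMb1, H2-Eb1 and H2-Aa. A match describes these letters and is not evidence of binding.

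Of 27 measured interferon response and antigen processing genes 17 were higher in crypts and 1 was lower, beside 10.7% and 10.5% of all genes. Their median log2 difference was 0.96. In 19 of them the organoid signal was under 25% of that of the reference RNA, which was taken from other arrays of the same kind. Among the other 8, 3 were higher and 1 was lower, with a median of 0.42. The shares of all genes not under 25% were 8.67% and 8.93%. Psmb9 and Psmb8, subunits of the immunoproteasome, which cuts peptides for presentation, ranked at 96.9 and 96.6 and at 96.6 and 95.7 in crypts. In organoids Psmb9 ranked at 77.4 and 78.2 and Psmb8 at 76.8 and 78.2, for log2 differences of 3.86 ± 0.22 and 3.67 ± 0.24 (SE). Both were bright in both groups, so these differences did not rest on a background level. The exception was H2-K1, a class I heavy chain, which was lower in crypts (99.0 in both replicates against 99.7 and 99.5, log2 difference -1.06).

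Several crypt-high genes encode proteins of absorption and digestion. Car4, a membrane carbonic anhydrase, ranked at 85.8 and 85.2 in crypts and 32.9 and 25.7 in organoids and was at least 15.8-fold higher. Cubn, the cubilin receptor for intrinsic factor and vitamin B12, was at least 14.1-fold higher (84.0 and 84.9 against 30.5 and 33.7). Slc5a12, a sodium-coupled monocarboxylate carrier, was at least 7.10-fold higher (79.4 and 76.3 against 4.73 and 18.0). Each of these genes was clear in both crypt replicates and not well above background in any organoid sample. Tmprss15, the enteropeptidase that activates trypsin, ranked at 63.1 and 62.3 against 24.1 and 19.3. Wfdc2, a secreted protease inhibitor, was at least 10.9-fold higher (82.8 and 81.4 against 30.5 and 42.1), and Amy2a5, a pancreatic amylase gene with near-identical copies, at least 1.63-fold higher. The enterocyte markers as a list did not share this direction, with 6 of 39 measured members higher in crypts, 8 higher in organoids and a median of 0.44. The shares of all genes were 10.7% and 10.5%. The iron exporter gene Slc40a1 was higher in crypts by 3.46 ± 0.29, whereas Ces2a, a carboxylesterase, differed by -3.75 ± 0.25 (SE).

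**Figure D2:**
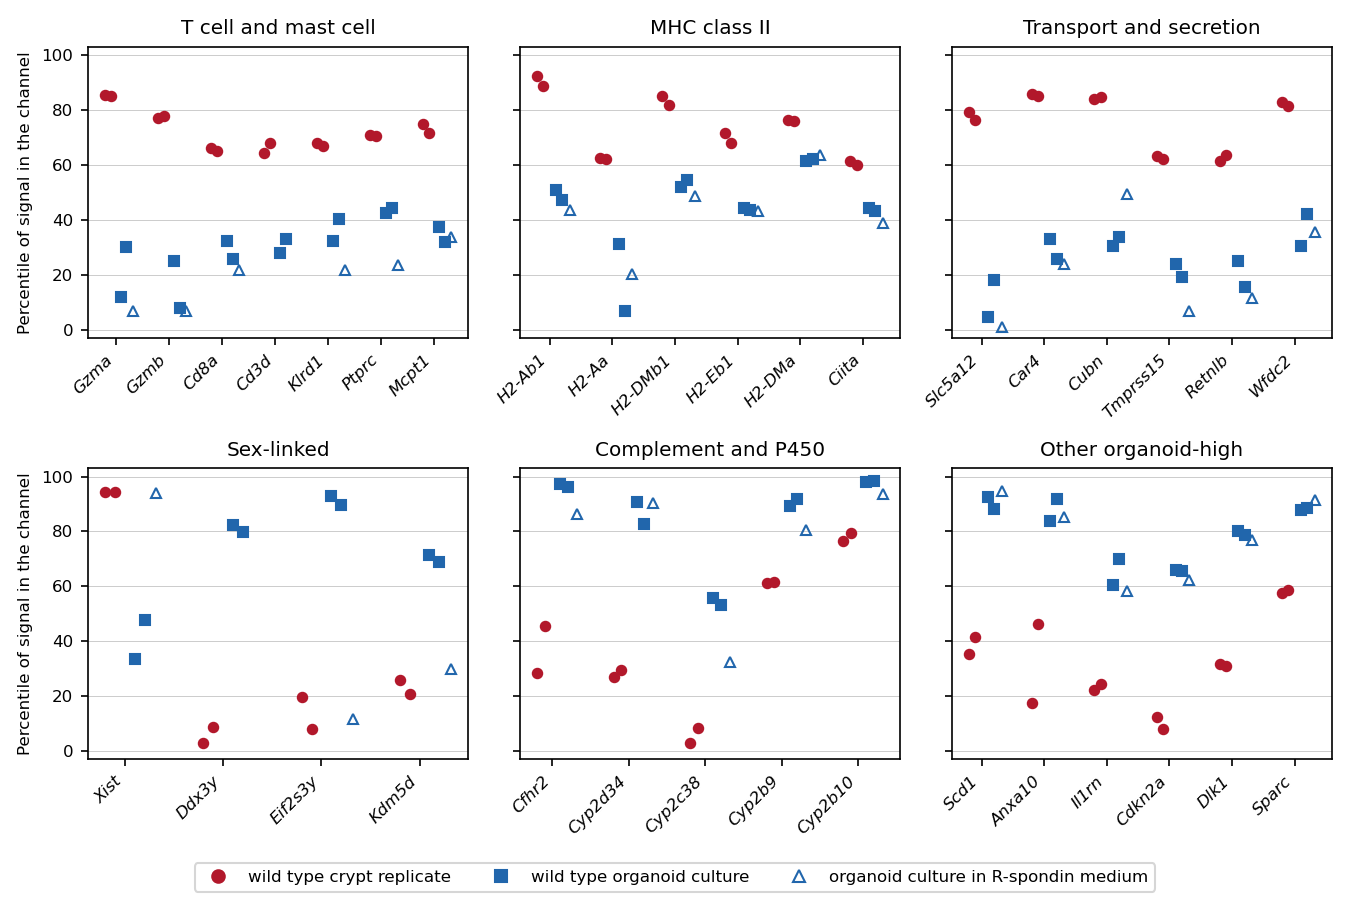
Percentile of signal within the channel (vertical axis) of genes named in the text, in each wild type crypt replicate (red circles), each wild type organoid sample (blue squares) and, where its probe passed the outlier filter, the culture in R-spondin medium (open triangles). In the upper panels the crypt replicates lie above the organoid samples, as for Gzma at 85.6 and 85.2 against 11.8 and 30.0. In the lower panels the order is the opposite except for Xist.

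Among the secretory lineages, some markers of Paneth, goblet and tuft cells were higher in crypts, while most members of each list did not pass. Of 17 measured Paneth cell markers 4 were higher in crypts and 1 in organoids (median 0.62), and of 21 goblet cell markers 6 and 3 (median 0.50). Of 15 tuft cell markers 3 and 0 were so (median 0.53). Over all genes the shares were 10.7% and 10.5%. Ang4, an antimicrobial protein of Paneth cells, ranked at 99.8 in both crypt replicates and at 91.7 and 98.5 in organoids, a log2 difference of 3.69 ± 0.67 (SE). The organoid samples differed from each other more than the crypt replicates did, and the R-spondin medium culture was at 99.2. Lyz1, the Paneth cell lysozyme, did not pass (99.8 and 99.7 against 99.0 and 99.7, adjusted p = 0.149). Muc2, the main gel mucin of goblet cells, ranked at 96.6 and 96.8 against 83.4 and 88.4 (log2 difference 2.57 ± 0.30), whereas the goblet cell peptide gene Tff3 did not pass (-0.25, adjusted p = 0.494). Retnlb, a goblet cell peptide known to be induced by microbes, ranked at 61.6 and 63.5 against 25.1 and 15.4. Microbe- and cytokine-induced defence genes as a list went both ways, 7 of 18 higher in crypts and 5 in organoids (median 0.30). Duox2, an epithelial oxidase, and Ccl20, a chemokine of gut epithelium, differed by -1.91 and -1.89. Pla2g2a, a phospholipase of Paneth cells, was higher in crypts by 2.64 ± 0.60 but ranked at 55.5 and 76.7 in the 2 organoid samples and at 99.3 in the R-spondin medium culture. Enteroendocrine markers were also split, 4 of 28 higher in crypts and 2 in organoids (median -0.12). The hormone genes Sst (88.0 and 88.2 against 61.1 and 73.4, log2 difference 2.91) and Gcg were higher in crypts, Chgb, a granin of hormone granules, was higher in organoids (-1.23), and Chga did not pass (-0.35, adjusted p = 0.406).

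Stem cell and Wnt target genes went both ways. Of 28 measured crypt base stem cell markers 8 were higher in crypts and 4 in organoids (median 0.01), and of 22 Wnt target genes 5 and 3 (median 0.24). Lgr5 itself had no probe that entered the comparison. Olfm4, a secreted stem cell marker, ranked at 98.2 and 98.8 against 94.9 and 97.3 (log2 difference 1.31 ± 0.34), and Tnfrsf19 at 79.1 and 80.2 against 50.2 and 61.8 (2.57 ± 0.29). Ascl2, the stem cell transcription factor, was slightly higher in crypts (0.88 ± 0.23), and Axin2, the feedback inhibitor of Wnt signalling, was higher in organoids (-1.12 ± 0.32). Targets of BMP and TGF-beta were higher in crypts in 6 of 17 cases and in organoids in 3 (median 0.59), beside 10.7% and 10.5% of all genes. They included Tgfbi (97.4 and 96.2 against 81.4 and 87.2, log2 difference 2.92), Id3 (88.9 and 86.8 against 73.9 and 70.8, 2.32) and the decoy receptor gene Bambi (1.25). Epithelial markers, which define the labelled tissue, were present in both groups and had a median of 0.00 to 2 decimals, with 1 of 20 higher in crypts and 4 in organoids. The adhesion gene Cdh1 ranked at 97.8 and 97.5 against 98.0 and 97.9 and did not pass (-0.17, adjusted p = 0.617).

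Targets of the aryl hydrocarbon receptor, a sensor of food and microbial aromatic compounds, were higher in crypts for 3 of 6 measured genes, with a median of 0.99. Without genes under 25% of the reference this held for 1 of 4, with a median of 0.22. The shares of all genes were 10.7% and, without those under 25%, 8.67%. On the organoid arrays 2 of the 6 were nowhere well above background and had entered through the crypts alone. The median rank gap of the 6 was 10.4 points, 5.20 points without organoid replicate 1 and 2.16 points with outlier spots kept. Cyp1a1, the main readout of the receptor, ranked at 87.2 and 82.9 in crypts and at 14.0 and 68.9 in organoids, a log2 difference of 3.38 ± 0.61 (SE, adjusted p = 0.00746). The 2 organoid samples were far apart for this gene, and both lay under the crypts. In the Lgr4- and Lgr5-deleted crypts of the same arrays it ranked at 98.1 and 98.4. The receptor's repressor Ahrr was at least 2.64-fold higher and Cyp1b1 at least 3.10-fold higher in crypts.

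Of 47 cell cycle genes 11 were higher in crypts and 0 in organoids (median 0.44), or 5 and 0 of the 38 not under 25% of the reference (median 0.33). Of 30 oxidative phosphorylation subunits 8 and 0 passed (median 0.44). Over all genes the shares were 10.7% and 10.5%, or 8.67% and 8.93% without genes under 25% of the reference. Ribosome biogenesis genes (3 and 1 of 35, median 0.17) and cytosolic ribosomal proteins (4 and 0 of 27, median 0.06) stayed near the median of all genes. Fatty acid oxidation and ketone body genes were split, 6 of 25 higher in crypts and 3 in organoids (median 0.15). Ppargc1a, a coactivator of mitochondrial genes, ranked at 87.5 and 88.2 against 75.8 and 69.8 (2.25 ± 0.29). Cpt1a, which admits fatty acids to mitochondria, differed by 1.80 ± 0.23, and the thioesterase gene Acot1 by -2.60 ± 0.28. Pdk4, the kinase that restrains pyruvate oxidation, was at least 3.27-fold higher in crypts and met the 25-point rule.

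Sex-linked genes gave wide gaps in both directions. Xist, the RNA that silences an X chromosome in female cells, ranked at 94.2 and 94.4 in the crypt replicates and at 33.6 and 47.8 in the organoids, at least 55.0-fold higher in crypts. The Y-linked Eif2s3y ranked at 19.5 and 7.94 in crypts and at 92.8 and 89.6 in organoids (at least 42.8-fold), Ddx3y at 2.99 and 8.86 against 82.4 and 79.6, and Kdm5d at 25.8 and 20.6 against 71.4 and 69.0. Both crypt replicates thus carried Xist and no Y-linked signal above background, and both organoid samples the reverse. In the culture in R-spondin medium Xist ranked at 94.1 and Eif2s3y at 11.5, the pattern of the crypts. Sex and group therefore cannot be told apart between the crypts and the 2 wild type organoid samples, and 5 of the organoid-high genes lay on the Y chromosome.

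The complement-related gene Cfhr2 ranked at 28.3 and 45.7 in crypts and at 97.2 and 96.2 in organoids, a log2 difference of -6.86 ± 0.25 (SE, limma adjusted p = 1.59e-05). Both organoid samples lay among the brightest probes, and the crypt signal was well above background in 1 of the 4 channels, so the difference is measured against a level near background. In the R-spondin medium culture it ranked at 86.2, under both wild type organoid samples and above both crypts.

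Many enzymes that handle foreign compounds were higher in organoids. Of 23 measured cytochrome P450 and carboxylesterase genes 14 were higher in organoids and 1, Cyp27a1, in crypts, with a median of -1.15. Over all genes the shares were 10.5% and 10.7%. Cyp2d34 ranked at 26.8 and 29.3 in crypts and 90.7 and 82.6 in organoids (at least 23.9-fold), and Cyp2b9 at 61.2 and 61.5 against 89.2 and 91.7 (-4.07 ± 0.25). Cyp2b10, the classic target of the constitutive androstane receptor, was well above background in both groups, at 76.5 and 79.2 against 98.0 and 98.3 (-4.60 ± 0.24, adjusted p = 4.81e-05). Genes of the oxidative stress regulator Nrf2 went the same way for 10 of 23 measured members and the other way for 0 (median -0.81). Gsta3, a glutathione transferase, ranked at 85.9 and 84.6 against 99.2 and 99.1 (-4.61 ± 0.23), and the epoxide hydrolase Ephx1 at 74.1 and 75.5 against 94.9 and 96.5 (-3.88 ± 0.26). The prototype target Nqo1 did not pass (-0.40 ± 0.40, adjusted p = 0.514). The deleted crypts of the same arrays ranked at 98.0 and 98.8 for Gsta3, near the organoids.

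Cholesterol synthesis and uptake genes were higher in organoids in 14 of 22 cases and in crypts in 0, with a median of -1.01. The shares over all genes were 10.5% and 10.7%. Cyp51, the sterol demethylase of the pathway, ranked at 80.0 and 77.6 in crypts and 94.0 and 90.2 in organoids (-2.33 ± 0.32). Fdps, the farnesyl diphosphate synthase, ranked at 95.6 and 95.0 against 98.7 in both organoid samples (-1.76 ± 0.22). Insig1, a sterol-sensing regulator of the pathway, ranked at 69.8 and 70.2 against 81.6 and 84.0 (-1.76 ± 0.23). The groups did not overlap for any of these genes. Scd1, the desaturase of saturated fatty acids, ranked at 35.2 and 41.5 in crypts and 92.5 and 88.3 in organoids (-5.08 ± 0.30), with 1 of 4 crypt channels well above background. The culture in R-spondin medium was at 94.6 for Scd1 and 89.4 for Cyp51, on the organoid side.

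**Figure D3:**
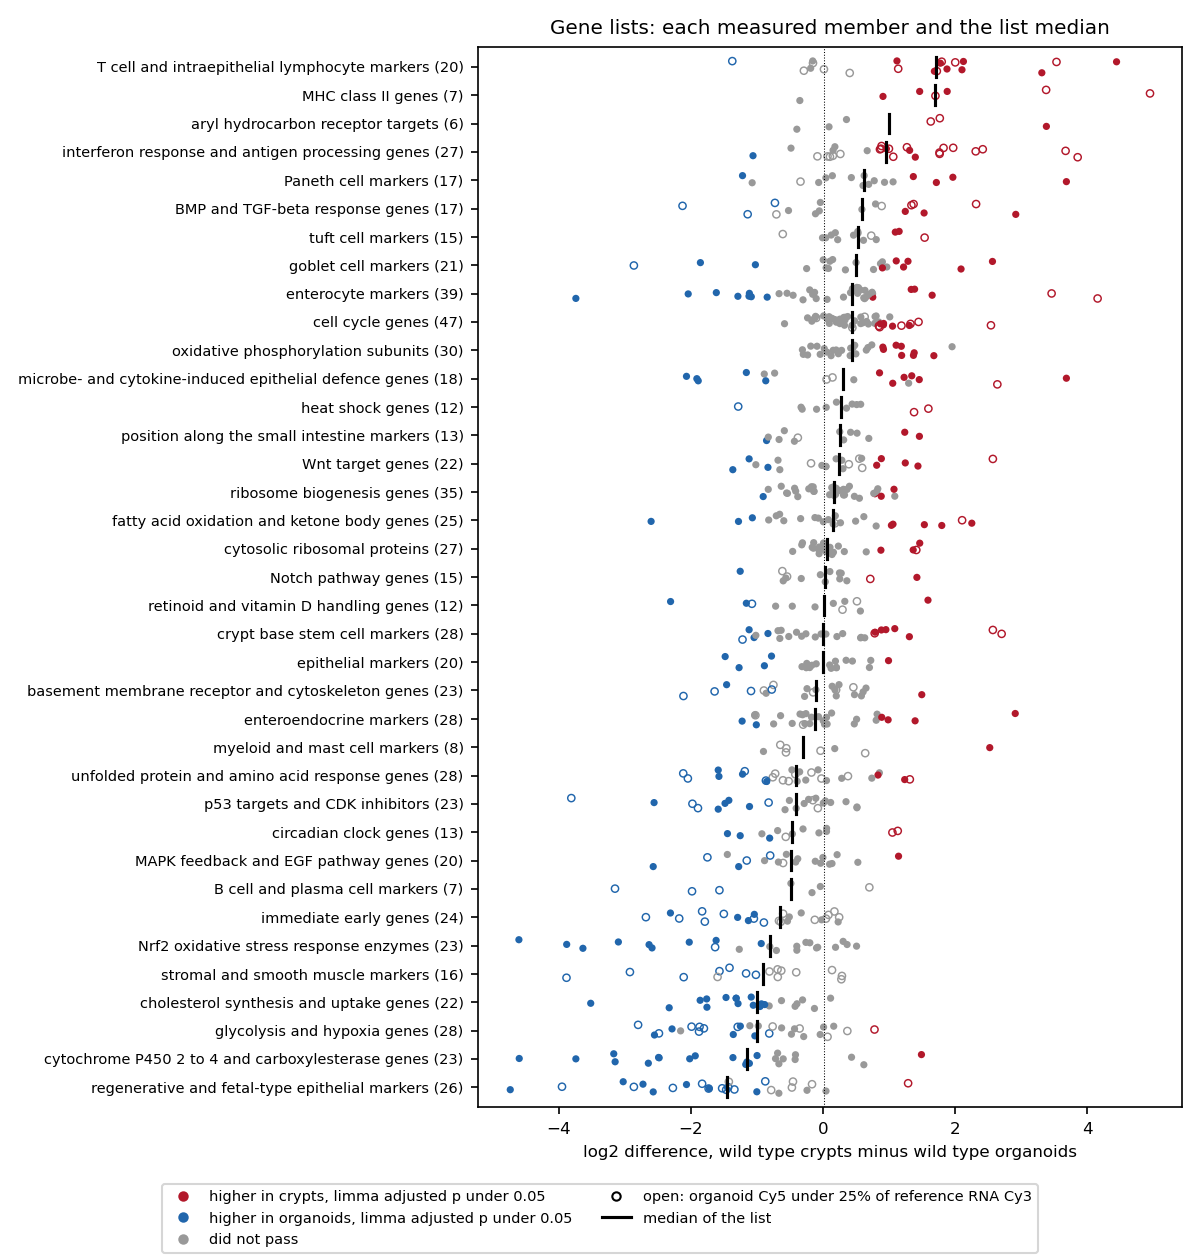
Log2 difference, wild type crypts minus wild type organoids (horizontal axis), of each measured member of the gene lists (number measured in brackets), with a vertical bar at the median of the list. Red points were higher in crypts and blue points higher in organoids at a limma adjusted p under 0.05, grey points did not pass, and open points are genes whose organoid signal was under 25% of that of the reference RNA. The medians run from 1.71 for T cell markers to -1.45 for regenerative and fetal-type epithelial markers.

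Organoid-high genes included some that are known from connective tissue and other cells outside the gut epithelium, and many of these were bright in the reference. The organoid arrays carried a reference RNA in the other channel, and 77 of the 124 organoid-high genes (62.1%) had an organoid Cy5 signal under 25% of the reference Cy3 signal, against 17.2% of all genes compared. The same held for 27 of the 54 crypt-high genes. The median organoid signal was 8.72% of the reference for organoid-high genes and 53.1% for all genes. All 16 measured stromal and smooth muscle markers were under 25%. Of these, 7 were higher in organoids and 0 in crypts, with a median of -0.91, beside 10.5% and 10.7% of all genes. All 16 were well above background on both organoid arrays and 7 in all 4 crypt channels. In no crypt channel were 2 of them so, and these had entered through the organoids alone. With the authors' processed signal the difference reversed for Col3a1 (0.76) and Tagln (0.067). Sparc, a matrix protein of fibroblasts, ranked at 57.6 and 58.5 in crypts and 87.9 and 88.6 in organoids with an organoid signal of 3.35% of the reference. Dlk1, a marker of fetal and stromal cells, ranked at 31.8 and 30.9 against 80.0 and 78.7 (4.26%), and Cdkn2a, a cell cycle inhibitor of aged and cultured cells, at 12.4 and 8.10 against 65.8 and 65.5 (7.59%). A strong reference signal and a weak organoid signal moved with these calls, and its part in them was not tested. Without the genes under 25%, 27 crypt-high and 47 organoid-high genes remained. In contrast, the organoid signal was 988% of the reference for Cfhr2, 125% for Scd1 and 671% for Eif2s3y.

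**Figure D4:**
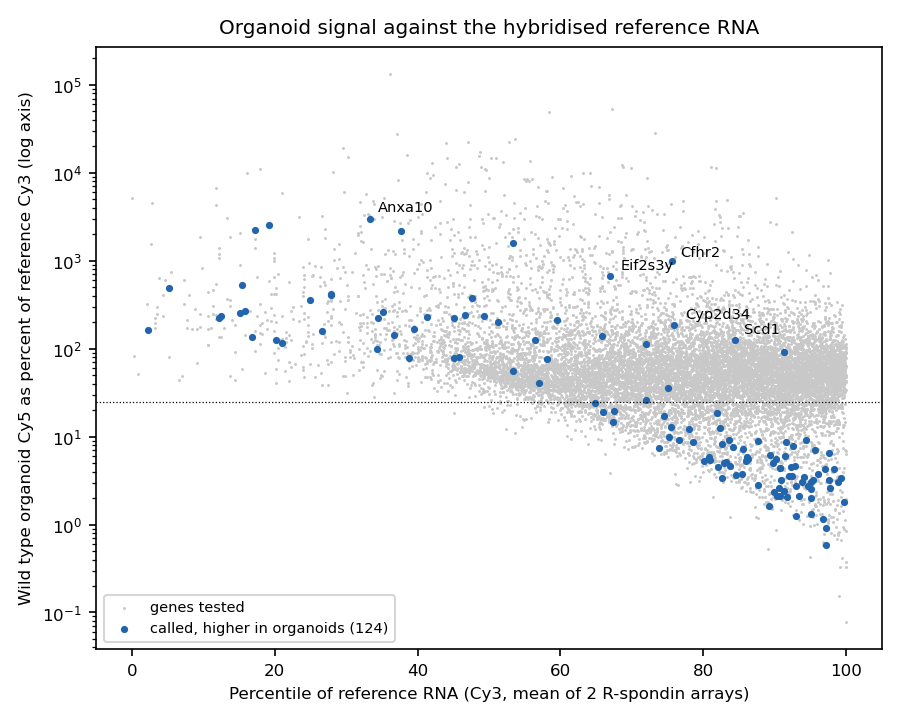
Wild type organoid Cy5 signal as a percent of the reference RNA Cy3 signal (vertical log axis) against the percentile of the reference RNA (horizontal axis) for each gene compared, with the 124 organoid-high genes in blue and a dotted line at 25%. Of the blue points, 77 lie under the line, mostly at high reference percentiles, and genes such as Cfhr2 and Anxa10 lie far above it.

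Regenerative and fetal-type epithelial markers, which rise in injured and fetal gut, were higher in organoids in 17 of 26 measured cases and in crypts in 1, with the lowest median of the plotted lists, -1.45. Over all genes the shares were 10.5% and 10.7%. All 26 were well above background on both organoid arrays. In crypts 13 were so in all 4 channels, where a channel left out for an outlier mark counted as not above. Of the 26, 4 were above background in no crypt channel, so that at least these 4 had entered through the organoids alone. Among the 10 members not under 25% of the reference, 7 were higher in organoids and 0 in crypts, with a median of -1.90. Clu, a marker of reviving stem cells, ranked at 36.1 and 48.7 in crypts and 70.3 and 86.2 in organoids (-3.03 ± 0.60). The EGF receptor ligand Areg ranked at 50.7 and 49.96 against 78.2 and 75.6 (-2.57 ± 0.23), and the keratin Krt23 at 86.4 and 85.5 against 96.3 and 97.6 (-2.73 ± 0.26). Anxa10, an annexin best known from stomach, ranked at 17.4 and 46.3 against 83.8 and 91.9 (-4.74 ± 0.44, with 2 of 4 crypt channels well above background), and Il1rn, the inhibitor of interleukin 1, was at least 3.06-fold higher. Ly6a, the surface marker also called Sca-1, was higher by the same test (-1.44 ± 0.22) with an organoid signal of 4.39% of the reference.

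Glycolysis and hypoxia genes were higher in organoids in 13 of 28 cases and in crypts in 1 (median -1.01), and in 5 and 0 of the 15 members not under 25% of the reference. Ndrg1, a gene induced by low oxygen, ranked at 95.1 and 94.9 in crypts and 99.4 and 99.0 in organoids (-2.55 ± 0.26). Immediate early genes (11 of 24, or 4 of 9 without those under 25%), p53 targets and CDK inhibitors (9 of 23, or 5 of 17) and MAPK feedback genes (5 of 20, or 2 of 16) also had members higher in organoids, with medians of -0.65, -0.41 and -0.48, beside 10.5% of all genes, or 8.93% without those under 25%. Oog1, known from oocytes, ranked at 38.8 and 47.4 against 87.2 and 87.9, and Pramel29, of the same gene family, at 38.6 and 42.2 against 84.2 and 84.5. Both were higher in organoids, though well above background in 2 and 1 of the 4 crypt channels, and stood far above the reference, at 2167% and 2212% of its signal. Unfolded protein and amino acid response genes were split, 3 of 28 higher in crypts and 8 in organoids (median -0.41). Of 23 basement membrane receptor and cytoskeleton genes 1 was higher in crypts and 5 in organoids, of 12 retinoid and vitamin D handling genes 1 and 3, of 13 circadian clock genes 2 and 3, and of 5 endothelial markers 0 and 2. Notch pathway genes (2 and 1 of 15), heat shock genes (2 and 1 of 12) and markers of position along the small intestine (2 and 1 of 13) had few members past the test, as did the 2 measured neuron and glia markers (0 and 1).

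The culture in R-spondin medium, on a slide of its own, was set beside the wild type organoids. Of 12855 genes measured in all 3, it was at least 25 points above both wild type organoid samples in 2 (0.0156%) and at least 25 points under both in 32 (0.249%). Xist was 1 of the 2 genes above, and Eif2s3y, Kdm5d and the salivary protein gene Prb1 (18.5 against 60.1 and 66.8) were among those under. By order of the wild type gap, its percentile was 35.8 for Zfp503, 1.05 for Slc5a12, 6.65 for Gzma and 23.9 for Car4 among crypt-high genes, and 11.5 for Eif2s3y, 90.4 for Cyp2d34, 62.3 for Cdkn2a and 70.7 for Thbs2, a matrix protein gene, among organoid-high genes. Of these, Eif2s3y lay with the crypts. It was compared with the same crypts, so its values are not a separate test.

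The Lgr4- and Lgr5-deleted crypts and organoids were other samples on the same slides. Between them 40 genes (0.316% of 12674) met the 25-point rule on the crypt side and 88 (0.694%) on the organoid side. Of the 54 genes called crypt-high in wild type, 22 met it and 46 had the same sign in all pairs, with 0 opposite. Of the organoid-high genes 69 of 119 measured met it and 113 had the same sign. The deleted samples shared the slides of the wild type samples, where slide and group cannot be told apart. These counts are therefore not a separate test. Gzma was at 93.5 and 94.0 in deleted crypts and 3.42 and 14.0 in deleted organoids, and Car4 at 85.9 and 78.3 against 24.4 and 39.4. Deleted crypt replicate 2 differed from the wild type crypts in the sex-linked genes, with Xist at 32.2 and Eif2s3y at 83.3. For Lipo3, a lipase family gene, wild type crypts ranked at 84.0 and 81.1 and wild type organoids near background at 6.93 and 5.90, yet deleted organoids ranked at 79.5 and 69.7. Zfp503, a zinc finger gene, gave the same picture, at 78.0 and 78.7 against 8.78 and 14.1 in wild type and at 79.0 and 70.3 in deleted organoids.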

How the data were processed

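RNA of 2 wild type crypt replicates and 2 wild type organoid samples was measured on 2-colour Agilent arrays. The deposited scanner files hold median spot and local background intensities; per the file headers they came from Feature Extraction 10.5.1.1, whereas the submitters' processing notes name 8.5.1.1. The authors' processed signal was used as an alternative. Control spots and spots marked as outliers were left out, the local background was subtracted, spots of a probe were averaged and probes were ranked within each channel; ranks of the 2 arrays of a crypt replicate were averaged. A gene took the probe with the highest mean rank. Of 41174 probes, 25097 were named through a RefSeq accession, 6333 and 1640 through a current or older symbol, and 8104 kept the name in the file. For the fit, normexp (offset 50), quantile normalization and log2 were followed by lmFit and eBayes in limma 3.58.1 (R 4.3.3), tested on simulated data. A bound compares the brighter mean with the lowest signal well above background, or the dim probe's own if higher. Named were the 15 genes with the widest gap in each direction, up to 6 called members and the first 3 measured members of each list. Members and gene lists were chosen with earlier results of these data known. On the wild type organoid arrays the negative control spots were at 6094 and 5883 in Cy3, above the gene spots at 1834 and 1830, so the reference signal was taken from the 2 arrays of the R-spondin medium experiment. Cy5 negative controls on the organoid arrays were at 114 and 108. The crypt signal of each dye alone was an alternative; slide and group cannot be told apart. Alternatives were other filters, gaps, normalizations, probe rules and dyes, and samples left out or added. Some genes that the naming rule gives are not reported here.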

Additional observations from a re-analysis of the deposited data

Results flagged for a closer look

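The difference between crypts and organoids itself differed between wild type and Lgr4- and Lgr5-deleted samples in 5 crypt-high genes with an approved symbol (limma interaction, Benjamini-Hochberg over all genes). The wild type difference was larger by 3.738 on the log2 scale for Lipo3 (adjusted p = 0.0364), by 3.675 for Zfp503 (adjusted p = 0.0247) and by 2.447 for the RNA-binding protein gene Khdrbs3 (adjusted p = 0.0449). For these 3 genes the deleted organoids ranked high, at 79.5 and 69.7 for Lipo3, 79.0 and 70.3 for Zfp503 and 70.7 and 64.8 for Khdrbs3, against 6.93 and 5.90, 8.78 and 14.1, and 52.2 and 45.4 in wild type organoids. It was smaller in wild type for Retnlb (-2.353, adjusted p = 0.0271) and Tmprss15 (-2.226, adjusted p = 0.0372). These genes ranked higher in deleted than in wild type crypts, at 79.4 and 81.8 against 61.6 and 63.5 for Retnlb and at 80.2 and 80.7 against 63.1 and 62.3 for Tmprss15. Deleted crypt replicate 2 also differed from the other crypts in Xist and Y-linked genes, and the part of that in these differences was not tested.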

How the results depend on the processing

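No paired analysis was possible because the organoid labels carry no replicate numbers. Leaving out 1 replicate gave 56 to 93 crypt-high and 142 to 233 organoid-high genes by the rank rule, and 77 to 2079 and 94 to 1900 by limma. By the rank rule there were 82 crypt-high genes with no filter on dim probes, 0 and 1 when both groups had to be above background, 170 and 331 at a gap of 15 points, 15 and 34 at 40 points, and 27 and 47 without genes bright in the reference, an alternative chosen after seeing the data. By limma there were 863 and 728 with Cy5 alone and 842 organoid-high genes when both groups had to be above background. Scaling the same signals to a common 75th percentile, in place of quantile normalization, gave 776 crypt-high genes. There were 817 and 868 without genes bright in the reference, and 615 and 763 with the R-spondin medium culture added, both chosen after seeing the data. Other settings kept the counts within 1.5 times. Of the single-gene log2 differences under all alternatives, 3883 kept direction and side, 646 no longer passed, 48 newly passed and 12 reversed. The reversed values were 0.015 for Rac2 with Cy5 alone, -0.46 for Defa3, -0.60 for Rpl11 and -0.20 for Rps3 with outlier spots kept, -0.75 for Rpl11 without organoid replicate 1 (range without 1 replicate -0.75 to 1.00), -0.38 for Rps3 without organoid replicate 2 (range -0.38 to 1.90), 0.072 for Ltbp1, -0.090 for Slc1a2 and -0.00087 for Trim63 with no filter, and 0.76 for Col3a1, 0.43 for Myl9 and 0.067 for Tagln with processed signals. Their cause was not tested. No rank gap of a named gene reversed under the alternatives run (495 kept the call, 13 lost it). The lost calls included those of H2-DMb1 with Cy3 alone and over all probes, Il1rn with Cy5 alone, Slc1a2 with Cy3 alone, Cpa1 with no background subtraction, Amy2a5 and Sparc with processed signals, and Xist, Eif2s3y, Prb1 and Pdk4 with the R-spondin medium culture added. Signal over background limits the crypt-high and organoid-high calls, most of which rest on a dim group.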
